A study of Mus musculus with 6 samples.

Results

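The genes described here are 35 genes of the cell division cycle and of DNA replication, chosen by gene symbol and not by any measured value. The platform annotation named at least 1 probe set for 34 of them. Ccnb1, which encodes cyclin B1, had no probe set named for it alone. The 34 genes were represented by 87 of the 45037 non-control probe sets, and 18193 genes were named in all. They fall into 5 roles. There are 9 G1 cyclins, their kinases and E2f1, 8 replication genes, 3 genes of nucleotide supply, 5 S, G2 and M phase genes and 9 mitotic genes.

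Transcripts were measured on Affymetrix 3' expression arrays in the lumbar spinal cord (L1, the first lumbar segment) of male SCID mice, an immunodeficient strain that lacks functional T and B lymphocytes. The mice entered the experiment at 9 weeks of age and were sampled at 15 weeks, 6 weeks after injection. Mice labelled N-inv received Capan-1 cells, an established line from a human pancreatic tumour, in the sciatic nerve of the left side. SC mice carried the same line under the skin, and PBS mice received the vehicle. Each of the 3 groups had 2 arrays. A single tumour line was used and every host was immunodeficient, controls included. Whether both arrays of a group stem from different animals is not said in the labels, so p-values measure only the spread between these samples, which may be technical. As a check of the tissue, 8 of 8 Hox genes of the lumbar cord lay above the range of the receptor reference defined below on all 6 arrays. Of 8 skeletal muscle markers, 1 passed the filter on dim probe sets. Above that reference on all 6 arrays were also 3 of 4 measured markers of Schwann cells and nerve roots and 8 of 8 of fibroblasts and meninges. The part of roots and meninges in the samples was not tested.

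A cell that enters division first makes D-type cyclins. Bound to Cdk4 or Cdk6, they inactivate the retinoblastoma proteins and free E2F transcription factors, which switch on cyclin E, the replication helicase and the enzymes of nucleotide supply. Genes of G2 and mitosis, among them Mki67, Cdk1 and the spindle kinases, are turned on later by the MuvB, B-Myb and FoxM1 complexes, while in resting cells the DREAM complex holds them down through short promoter elements. In the adult cord, oligodendrocyte precursors are the main dividing cells of the resting tissue, and microglia and astrocytes can enter the cycle after nerve or cord injury, which is why transcripts of these genes are often read beside glial markers.

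The promoter sequences are shown because several of them hold elements linked to early or to late expression in the cycle. The RefSeq table of assembly GRCm38.p6 held 30 promoters for 28 of the 35 genes, each running from 250 bases before to 50 after the annotated start. The 120 bases just before the start are printed for 5 of them, 5' to 3' on the gene's own strand, all on the minus strand of the chromosome. Capitals mark TTTGAA, the core of the cell cycle homology region, CCAAT, and TTTGGCGC or TTTCCCGC, the letters of E2F sites, each on either strand. The first 3 belong to late genes that lay at or near the dim end of these arrays. They are Mki67 at chr7:135716380-135716499, Cdk1 at chr10:69352913-69353032 and Top2a at chr11:99024190-99024309. The last 2 belong to replication genes, Mcm6 at chr1:128359706-128359825 and Pcna at chr2:132253181-132253300. The Pcna stretch holds CCAAT and neither TTTGAA nor an E2F sequence.
Mki67: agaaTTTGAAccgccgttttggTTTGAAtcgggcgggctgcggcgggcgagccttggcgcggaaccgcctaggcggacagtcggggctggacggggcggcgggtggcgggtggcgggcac
Cdk1: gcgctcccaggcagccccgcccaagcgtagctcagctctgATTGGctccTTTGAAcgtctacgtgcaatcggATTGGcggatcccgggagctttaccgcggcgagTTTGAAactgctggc
Top2a: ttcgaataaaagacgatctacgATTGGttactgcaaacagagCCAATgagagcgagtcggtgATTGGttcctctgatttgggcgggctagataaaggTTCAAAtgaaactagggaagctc
Mcm6: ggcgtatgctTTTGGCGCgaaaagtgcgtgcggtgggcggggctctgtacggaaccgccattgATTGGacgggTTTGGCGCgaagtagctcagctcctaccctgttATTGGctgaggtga
Pcna: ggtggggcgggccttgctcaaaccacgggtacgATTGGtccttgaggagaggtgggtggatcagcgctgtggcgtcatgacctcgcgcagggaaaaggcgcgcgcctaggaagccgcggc

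The TTTGAA and E2F letters were unevenly spread over the roles. Over the 300-base promoters, TTTGAA stood in 9 of 12 promoters of the S, G2, M and mitotic genes, in 1 of 8 of the replication genes, in 0 of 7 of the G1 genes and in 0 of 3 of the nucleotide genes. Either E2F sequence stood in 5 of 8 replication promoters, in 1 of 7 G1 promoters, in 0 of 3 nucleotide promoters and in 0 of 12 late promoters. CCAAT did not divide late from replication genes, with 11 of 12 late promoters, 7 of 8 replication promoters, 2 of 3 nucleotide promoters and 2 of 7 G1 promoters. For all 30 promoters, TTTGAA was present in 33.3%, CCAAT in 73.3% and either E2F sequence in 20%, against 17.9%, 37.4% and 1.56% of the 32851 promoters in the table. Different motifs overlapped in 0 of the 30 promoters. A match describes these letters and is not evidence of a bound site.

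Several properties of the arrays bear on every value below. All intensities given are the deposited ones rescaled here to 1 median for all arrays. Replicate 2 of SC, labelled male, had a scaled Xist intensity of 13028, while the other 5 arrays lay between 138 and 228. That array thus goes against its label for sex. Many of the differences from SC that are discussed, but not all, are given also without it. The 2 SC arrays also had the lowest correlation of any pair, with r = 0.965 over the probe sets. For the Actb control probe sets, the ratio of 3' to 5' signal, a sign of RNA quality, ran from 3.05 to 3.57 in PBS and N-inv. It was 3.81 and 4.70 in SC. For the Gapdh control it was 2.82 and 3.02 (PBS), 3.12 and 3.38 (N-inv) and 3.52 and 3.38 (SC). The part of RNA quality in the differences between the groups was not tested. The file has no detection call. The 83 probe sets of chemosensory receptors, genes of nose and tongue, therefore served as a reference for dim signal, with a 95th percentile between 152 and 182 on the 6 arrays. Probe sets differ in how they respond, so this is a scale and not a detection limit.

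Most early genes of the cycle were measured above that reference and most late genes were not. On all 6 arrays, 15 of the 34 genes lay above the 95th percentile of the receptors, 11 did so on some arrays and 8 on none. Of the 9 G1 genes, 8 lay above it on every array, as did 5 of 8 replication genes and 1 of 3 nucleotide genes. Among the 5 S, G2 and M phase genes 0 did so, and among the 9 mitotic genes 1 did. The 8 genes within the receptor range on every array were Cdc6, Rrm2, Tyms, Mki67, Cdk1, Aurkb, Bub1 and Bub1b, whose intensities lay between 5.06 and 153. The number of genes above the receptor reference was 22 and 21 (PBS), 20 and 21 (N-inv) and 20 and 20 (SC), so the groups overlapped.

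**Figure D1:**
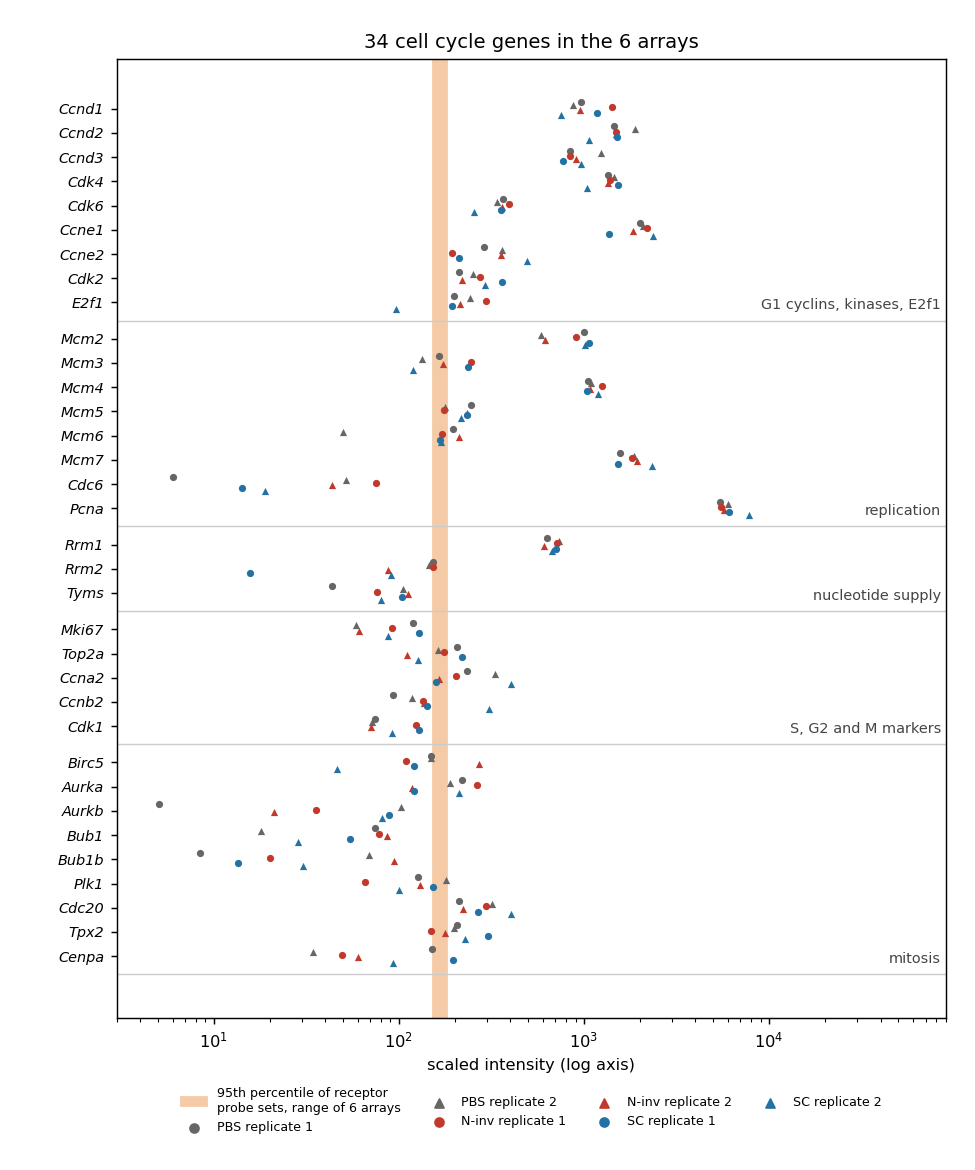
Scaled intensity on a log axis (x) of the 34 genes (y) on each of the 6 arrays, 1 point per array, with the band giving the range of the receptors' 95th percentile over the 6 arrays. G1 genes sit to the right of the band except for 1 array of E2f1, and Mki67 and Cdk1 sit to its left on every array.

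The D-type cyclins and their kinases were measured above the reference in every group, and most of their ranges overlapped between groups. Ccnd1, the cyclin D1 gene and a target of growth factor signalling, had scaled intensities of 964 and 868 (PBS), 1414 and 948 (N-inv) and 1181 and 751 (SC). The N-inv arrays of Ccnd1 spread more widely than the distance between the groups. For Ccnd2, cyclin D2, the values were 1444 and 1876 (PBS), 1489 and 1486 (N-inv) and 1513 and 1059 (SC), and for Ccnd3, cyclin D3, they were 839 and 1229, 835 and 911, and 769.8 and 962 in that order. Cdk4, a kinase partner of all 3 D cyclins, gave 1344 and 1446 (PBS), 1374 and 1356 (N-inv) and 1517 and 1036 (SC). The ranges of these genes overlapped between all groups in their brightest probe sets, apart from the related kinase Cdk6. Its 394 and 362 in N-inv lay above the 354 and 255 in SC but overlapped the 365 and 339 in PBS.

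Cyclin E and its kinase overlapped between PBS and N-inv. Ccne1, cyclin E1, had 2007 and 2083 (PBS), 2197 and 1838 (N-inv) and 1361 and 2353 (SC). Ccne2, cyclin E2, had 287 and 362 (PBS), 194 and 356 (N-inv) and 212 and 494 (SC), with all groups overlapping. Cdk2, the kinase that cyclin E activates at the start of S phase, had 210.4 and 251 (PBS), 273 and 218 (N-inv) and 359 and 293 (SC). The SC arrays of Cdk2 lay above the other 4. E2f1, the activating E2F that drives S phase genes, had 199 and 242 (PBS), 297 and 215 (N-inv) and 193 and 96.4 (SC), with both SC arrays below the rest.

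Of the replication genes, the sliding clamp Pcna and the helicase genes Mcm2, Mcm4 and Mcm7 were plainly measured in every group. Pcna, the clamp that holds DNA polymerases on the template and also serves DNA repair, had 5451 and 5967 (PBS), 5487 and 5694 (N-inv) and 6056 and 7829.5 (SC). PBS and N-inv overlapped, and both SC arrays were higher. The Mcm2 to Mcm7 proteins form the 6-part helicase that unwinds DNA at the fork. Mcm2 had 994 and 583 (PBS), 905 and 617 (N-inv) and 1067 and 1012 (SC). Mcm4 had 1046 and 1094, 1250.1 and 1075, and 1039.9 and 1184 in the same order, and Mcm7 had 1569.7 and 1871, 1818 and 1930.4, and 1523 and 2337. The other helicase genes lay nearer to the receptor reference. Mcm3 had 166 and 133 (PBS), 245 and 174 (N-inv) and 237 and 119 (SC), and Mcm5 had 245 and 177, 175 and 234, and 233 and 217. Mcm6 had 196 and 49.7 (PBS), 172 and 210.4 (N-inv) and 167 and 169 (SC), so its PBS mean was pulled down by 1 array. Cdc6, which loads the helicase onto origins, lay between 6.03 and 75.5.

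Rrm1, the large subunit of the enzyme that makes deoxynucleotides and a subunit that is present through the cycle, had 633 and 730.1 (PBS), 713 and 606 (N-inv) and 706 and 674 (SC). All 3 groups overlapped. Its S phase partner Rrm2 lay between 15.7 and 153 and Tyms, thymidylate synthase, between 43.3 and 112, both within the receptor range.

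The late genes showed no group with a raised level on every marker. Mki67, the gene of the proliferation antigen Ki-67, had 119.6 and 58.6 (PBS), 91.9 and 61.1 (N-inv) and 128 and 87.6 (SC). Its groups overlapped and all 6 values lay within the receptor range. Cdk1, the kinase that starts mitosis, had 74.5 and 71.5 (PBS), 124 and 70.3 (N-inv) and 128 and 92.1 (SC). Top2a, the topoisomerase that untangles replicated chromosomes, had 207 and 163, 175 and 111, and 219 and 128 in that order, and again all groups overlapped. Ccna2, cyclin A2, had 233 and 329.9 (PBS), 204 and 165 (N-inv) and 158 and 403 (SC). Ccnb2, cyclin B2, had 93.1 and 118 (PBS), 135 and 136 (N-inv) and 142 and 305 (SC).

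Among mitotic genes, Cdc20, the activator of the anaphase-promoting complex, was the gene above the receptor reference on all 6 arrays, with 212 and 320.1 (PBS), 295 and 223 (N-inv) and 268 and 403 (SC). Tpx2, which targets Aurora A to the spindle, had 206 and 198 (PBS), 149 and 178 (N-inv) and 302 and 228 (SC). The N-inv arrays of Tpx2 were the lowest and the SC arrays the highest. Aurka, the Aurora A kinase, had 219 and 189.6, 263 and 118, and 120.3 and 211. The survivin gene Birc5, a part of the chromosomal passenger complex, ran from 46.5 to 272, Plk1, a mitotic entry kinase, from 65.2 to 180.5, and Cenpa, the histone variant of centromeres, from 34.4 to 196. The passenger kinase Aurkb and the spindle checkpoint kinases Bub1 and Bub1b ran from 5.06 to 102. In bulk tissue, fewer cells of a dividing type and less RNA per cell cannot be told apart.

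Sciatic nerve injection of tumour cells was first compared with vehicle, which asks whether the L1 segment then holds more cell cycle RNA. No gene of the set passed the test. Each gene was read from its brightest probe set unless said otherwise. Of the 22 genes bright enough to be tested, 0 had an adjusted p under 0.05 in limma. The background was 0% of the 27022 probe sets. At an unadjusted p under 0.05 there were also 0, where 2.19% of all named genes tested were higher and 1.17% lower. A dimmer tested probe set of Cdk6, given below, had an unadjusted p under 0.05. The smallest adjusted p among the 22 was 0.99998 in limma. Over the 27022 probe sets, 1097 had an unadjusted p under 0.05 and the smallest adjusted p was 0.283.

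Differences of both signs occurred within each role. On the log2 scale of intensity plus a pseudocount of 25.6, which understates changes of dim genes, 15 of the 34 genes were higher and 19 lower in N-inv than in PBS. The median difference was -0.03, and that of all 18193 named genes was 0.03. The G1 genes had a median of -0.02, the replication genes 0.12, the nucleotide genes -0.05, the S, G2 and M phase genes -0.13 and the mitotic genes -0.17, and these signs were the same with the deposited scaling and with quantile normalization. The signs depended on the probe set. When each gene was read from its brightest probe set not ending in _s_at or _x_at, the endings of probe sets that may hybridise with other transcripts, the replication median was -0.05 with 3 of 8 higher in place of 5 of 8. The nucleotide median was 0.15 and the mitotic median 0.01 under that choice, and the other roles kept their sign. Arrays of the groups did not overlap for 3 genes that were higher in N-inv, Mcm3, Ccnb2 and Bub1, and for 2 that were lower, Ccna2 and Tpx2. The background shares of such genes were 22.1% higher and 14.5% lower over all named genes, and the shares of the set were smaller in both directions.

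The intervals show what the arrays could have resolved. Mcm3 was higher by 0.41 on the log2 scale (95% interval -0.33 to 1.16, n = 2 and 2) and Ccnd1 by 0.33 (-0.33 to 1.0). Ccna2 was lower, with a difference of -0.54 (-1.47 to 0.40), as was Tpx2 with -0.27 (-0.73 to 0.18). These intervals all include 0. With each array left out in turn, Mcm3 ran from 0.19 (without N-inv replicate 1) to 0.63 (without N-inv replicate 2), Ccna2 from -0.77 (without PBS replicate 1) to -0.30 (without PBS replicate 2) and Tpx2 from -0.38 to -0.16 (without N-inv replicate 1). Well-measured genes had narrow intervals, with Pcna at -0.03 (-0.47 to 0.41), Mcm4 at 0.11 (-0.29 to 0.51) and Rrm1 at -0.05 (-0.45 to 0.36). The dim late genes had wide ones, Mki67 at -0.13 (-1.03 to 0.77) and Cdk1 at 0.28 (-0.45 to 1.01), in the fit without the filter. Of the 22 tested genes, 16 had intervals that lay within 1 on the log2 scale of 0, so a change of 1 in either direction lay outside the interval for those genes, and for the other 6 it lay inside in at least 1 direction.

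**Figure D2:**
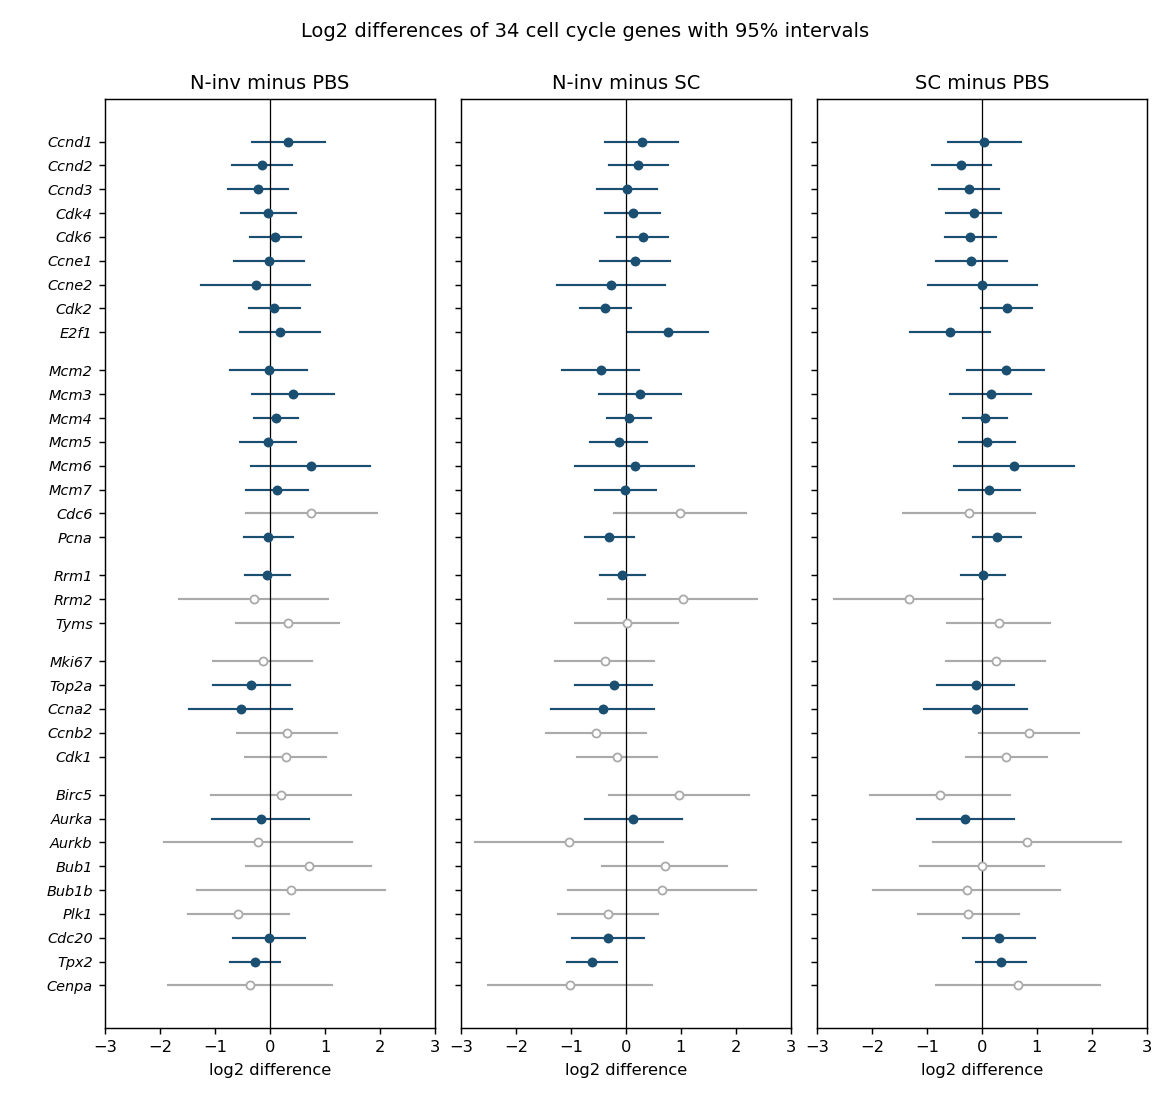
Log2 difference (x) of each of the 34 genes (y) in the 3 comparisons, with 95% moderated intervals of limma. Filled points are the 22 genes above the filter and open grey points the 12 below it, and the intervals of E2f1 and Tpx2 in N-inv minus SC are the only ones that leave out 0.

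The comparison of nerve injection with tumour under the skin asks about the site of the tumour where both groups carry it. The injection of the nerve itself cannot be told apart from the tumour site in this comparison. Again no gene of the set passed, with 0 of 22 genes at an adjusted p under 0.05 in limma against a background of 0%. In their brightest probe sets, E2f1 was higher and Tpx2 lower in N-inv at an unadjusted p under 0.05. This makes 1 gene in each direction of 22 tested, where 6.08% of all named genes tested were higher and 2.09% lower at that level. Dimmer tested probe sets of Ccnd2 and Ccnd3, given below, also had an unadjusted p under 0.05. Over the 27022 tested probe sets, 2417 had one. E2f1 was higher by 0.77 on the log2 scale (SE 0.30, 95% interval 0.04 to 1.5), with an adjusted p = 0.541 in limma. Both N-inv arrays were above both SC arrays. Without SC replicate 2, the array that goes against its label, the difference was 0.35, and without SC replicate 1 it was 1.19. Tpx2 was lower, with a difference of -0.61 (SE 0.19, 95% interval -1.07 to -0.16) and an adjusted p = 0.461 in limma. It was -0.80 without SC replicate 2 and -0.43 without SC replicate 1. Both differences kept their sign in those fits.

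The S, G2 and M phase genes lay on the lower side in this comparison in their brightest probe sets, within their errors. All 5 had lower means in N-inv than in SC, with a median of -0.39, and the sign was negative for the same 5 under the deposited scaling and under quantile normalization. The differences were -0.39 for Mki67 (-1.29 to 0.51), -0.55 for Ccnb2 (-1.46 to 0.36), -0.42 for Ccna2, -0.23 for Top2a and -0.17 for Cdk1 (-0.90 to 0.56). None of these 5 passed the test or had an interval that left out 0. Without SC replicate 2 the difference of Ccna2 was 0.19 and that of Ccnb2 -0.06, and the median of the 5 was -0.36. Without SC replicate 1, 2 of the 5 were higher in N-inv and the median was -0.17. Other probe sets differed in sign. The dim Top2a probe set 1454694_a_at had 134 and 49.9 (PBS), 139 and 114 (N-inv) and 13.3 and 37.1 (SC), a difference of 1.62 between N-inv and SC, and Ccna2 had 0.11 from 1417911_at. The mitotic genes had a median of -0.33 with 4 of 9 higher, which was -0.05 without SC replicate 2 and 0.03 from probe sets not ending in _s_at or _x_at. The G1 genes had a median of 0.16 with 7 of 9 higher, which was 0.09 with 5 of 9 higher without SC replicate 2. For replication genes the median was 0.03, and it turned to -0.03 with the deposited scaling, to -0.05 with quantile normalization and to -0.12 from probe sets not ending in _s_at or _x_at. Over all 34 genes the median was 0.00, with 17 higher and 17 lower, beside 0.04 for all named genes, and it was -0.06 under quantile normalization and -0.04 without SC replicate 2.

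Groups did not overlap for 12 genes. Cdk6, E2f1, Mcm6, Cdc6 and Bub1 were the 5 with both N-inv arrays above both SC arrays, where 21.7% of all named genes were, and Cdk2, Mcm2, Pcna, Ccnb2, Aurkb, Tpx2 and Cenpa were the 7 below, where 14.2% were. Cdk2 had a difference of -0.38 (-0.84 to 0.09, adjusted p = 0.628 in limma) and Mcm2 of -0.46 (-1.16 to 0.24, adjusted p = 0.694). For Pcna the difference was -0.30 (-0.74 to 0.14, adjusted p = 0.684 in limma), and it was -0.12 without SC replicate 2. Cdk6 was 0.30 higher (-0.16 to 0.77), and 0.09 without that array. Mcm2 was -0.50 and Cdk2 -0.51 without SC replicate 2, but without N-inv replicate 2 they were -0.19 and -0.23, and Cdk2 was -0.24 without SC replicate 1. Mcm6 was 0.16 higher, 0.17 when SC replicate 2 was left out and 0.03 when N-inv replicate 2 was. The estimates for Pcna, Cdk6, Mcm2, Cdk2 and Mcm6 thus moved by more than 1.5 times when 1 array was left out.

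Tumour under the skin was then set against vehicle, the comparison in which the cord has no tumour in its nerve. It called 0 of 22 genes in limma, against a background of 0%, and 0 had an unadjusted p under 0.05, where 2.23% of all named genes tested were higher and 4.47% lower. These counts rest on the brightest probe set of each gene. Dimmer tested probe sets of Ccnd2 and Ccnd3, given below, had an unadjusted p under 0.05. Over the 27022 tested probe sets, 2141 had one. Among the brightest probe sets Cdk2 came nearest, with a difference of 0.46 (SE 0.20, 95% interval -0.01 to 0.92) and an adjusted p = 0.637 in limma. It was 0.59 without SC replicate 2 and 0.32 without SC replicate 1. E2f1 had a difference of -0.59 (-1.31 to 0.14, adjusted p = 0.706), which was -0.17 without SC replicate 2 and -1.01 without SC replicate 1. The SC arrays differed from each other at E2f1 by more than the groups did on the log2 scale.

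More replication genes lay above than below PBS in this comparison. Of the 8, 7 were higher in SC, with a median of 0.15, and the count was the same with the deposited scaling and with quantile normalization. Mcm2 had a difference of 0.43 (-0.26 to 1.13), Pcna of 0.27 (-0.17 to 0.71) and Mcm6 of 0.59 (-0.50 to 1.67). None passed the test. Without SC replicate 2, 5 of the 8 were higher with a median of 0.11, and Pcna was 0.09, Mcm2 0.47 and Mcm6 0.58. Mcm2 was 0.06 without PBS replicate 2 and 0.035 as the mean of its probe sets. From probe sets not ending in _s_at or _x_at, 5 of the 8 were higher with a median of 0.16, and Mcm2 (-0.37) and Mcm5 (-0.38, from the dim 1415945_at) were lower. The G1 genes had a median of -0.19 with 3 of 9 higher, the nucleotide genes 0.02, the S, G2 and M phase genes 0.26 with 3 of 5 higher, and the mitotic genes 0.00 with 5 of 9 higher. These medians were -0.12, 0.05, 0.36 and 0.03 without SC replicate 2. All 34 genes had a median of 0.03, with 20 higher and 14 lower, beside -0.01 for all named genes. Arrays did not overlap for 6 genes that were higher in SC, Cdk2, Mcm2, Pcna, Ccnb2, Cdk1 and Tpx2, against 15.4% of all named genes, and for 3 that were lower, E2f1, Rrm2 and Birc5, against 18.1%. Ccnb2 had a difference of 0.85 (-0.06 to 1.76) and Rrm2 of -1.33 (-2.69 to 0.03), both in the fit without the filter and both at dim signal. Without SC replicate 2 these were 0.36 and -2.08. The Rrm2 value comes from 1434437_x_at, and the dimmer probe sets 1448226_at and 1416120_at gave 0.09 and 0.20, the opposite sign. The 3 comparisons share their groups, so a gene that is high in SC appears in both comparisons with it.

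The spread between the arrays of a group was wide for the brighter genes of the set. For the 22 tested genes the median absolute log2 difference between the 2 arrays was 0.25 in PBS, 0.26 in N-inv and 0.52 in SC. Over all named genes above the filter it was 0.15, 0.14 and 0.29. For the 12 genes below the filter it was 0.85, 0.50 and 0.51, beside 0.51, 0.54 and 0.59 over all named genes below it. Within the set, SC thus had the widest spread for the brighter genes, and PBS for the dimmer ones.

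Several genes had more than 1 probe set, and these did not always move together. There were 26 genes with several probe sets, of which 13 had more than 1 above the filter. All of a gene's tested probe sets had the same sign for 8 of the 13 in N-inv against PBS, for 5 in N-inv against SC and for 5 in SC against PBS. Ccnd2 shows how far they can part. Its brightest probe set differed by -0.37 (adjusted p = 0.750 in limma) between SC and PBS. Probe set 1416122_at of the same gene had 1422 and 1733 (PBS), 1246 and 1334 (N-inv) and 956 and 810.2 (SC), a difference of -0.82 between SC and PBS with an adjusted p = 0.507 in limma. Probe set 1430127_a_at had 575 and 879, 491 and 606, and 386 and 341, a difference of -0.92 with an adjusted p = 0.507. In both of these probe sets the groups stood in the order PBS, N-inv, SC, with the SC arrays below the other 4. Without SC replicate 2 their differences between SC and PBS were -0.70 and -0.84, and that of the brightest probe set was -0.12. Probe set 1455956_x_at had a difference of -0.05 in the same comparison. Between N-inv and SC, 1416122_at differed by 0.54 (adjusted p = 0.483 in limma), and by 0.42 without SC replicate 2. For Ccnd3, probe set 1438805_at had 157 and 145 (PBS), 134 and 144 (N-inv) and 212 and 387 (SC). It differed by 0.83 between SC and PBS and by -0.93 between N-inv and SC, beside -0.23 and 0.02 from the brightest. Its adjusted p was 0.577 and 0.460 in limma, and without SC replicate 2 the differences were 0.43 and -0.53.

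For Cdk6, which with cyclin D restarts the cycle in resting cells, all 3 probe sets had higher means in N-inv than in either control. The brightest differed by 0.10 from PBS. Probe set 1435338_at had 243 and 276 (PBS), 374 and 376 (N-inv) and 282 and 312 (SC), a difference of 0.49 from PBS with an adjusted p = 0.99998 in limma. The dim probe set 1460291_at had 5.55 and 35 (PBS), 92.4 and 58.0 (N-inv) and 14.3 and 12.3 (SC), all within the receptor range. In the last 2 of these probe sets, both N-inv arrays lay above the other 4. Over all named genes, 22.1% had both N-inv arrays above both PBS arrays and 21.7% above both SC arrays. The share above both groups at once was not counted.

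The differences of E2f1 and Tpx2 were not shared by all of their probe sets. E2f1 had a second tested probe set, 1417878_at, with 228 and 194 (PBS), 249 and 35.6 (N-inv) and 196 and 269 (SC). Its difference between N-inv and SC was -0.98, opposite in sign to the 0.77 of the brighter probe set. For Tpx2, the dim probe set 1428104_at had 125 and 77.6, 67.3 and 62.4, and 17.2 and 38.5, a difference of 0.79 between N-inv and SC, opposite to the -0.61 of the brightest. Mcm2 was read from a probe set that may hybridise with related transcripts. Its other probe set, 1448777_at, had 475 and 382 (PBS), 411 and 279 (N-inv) and 319 and 332 (SC), which turned the difference between SC and PBS from 0.43 to -0.37 and that between N-inv and SC from -0.46 to 0.06. Mcm3 had 4 other probe sets, none above the filter, with differences of -0.42, -0.62, 0.25 and -0.26 in N-inv against PBS beside the 0.41 of the brightest. Ccna2 also had a second probe set with the opposite sign in N-inv against PBS, 0.33 against -0.54.

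**Figure D3:**
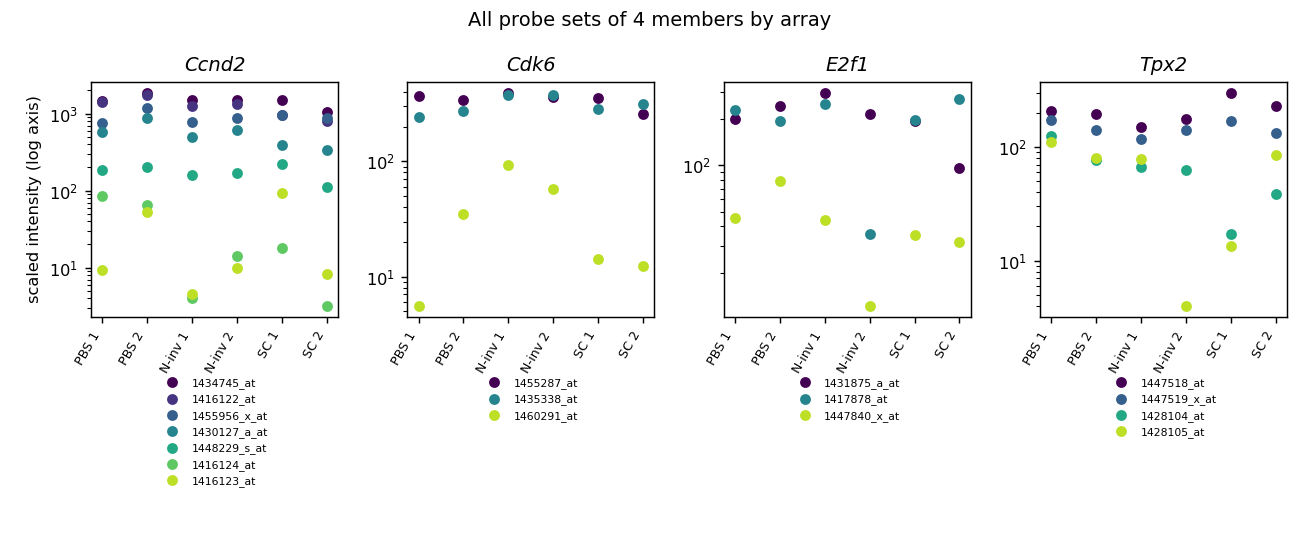
Scaled intensity on a log axis (y) of every probe set of Ccnd2, Cdk6, E2f1 and Tpx2 on each of the 6 arrays (x), 1 colour per probe set. The Ccnd2 probe sets 1416122_at and 1430127_a_at are lowest in SC, and 1 probe set of E2f1 drops to 35.6 in N-inv replicate 2.

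In the wider pathway no gene passed the test either. A further 142 genes of cell cycle control were listed, of which 141 had a probe set and 95 passed the filter. Of these 95, 0 had an adjusted p under 0.05 in limma in each of the 3 comparisons. At an unadjusted p under 0.05, 1 was higher and 3 lower in N-inv against PBS, 2 higher and 1 lower in N-inv against SC, and 1 higher and 4 lower in SC against PBS. The shares of all named genes tested were 2.19% higher and 1.17% lower, 6.08% and 2.09%, and 2.23% and 4.47% in that order. The median of the 141 genes was -0.05 in N-inv against SC and nearer to 0 in the other comparisons.

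Inhibitors of the cyclin-dependent kinases had 6 of 7 genes tested. Cdkn2b, which encodes the p15 inhibitor of Cdk4 and Cdk6, had 408 and 356 (PBS), 202 and 239 (N-inv) and 242 and 319.6 (SC), and differed by -0.73 between N-inv and PBS (SE 0.20, adjusted p = 0.99998 in limma). All 4 arrays of tumour-bearing groups lay below both PBS arrays. Cdkn1a, the p21 gene that p53 and stress hormones induce, was chosen after its values were seen. It had 2420.5 and 3457 (PBS), 3179 and 3101 (N-inv) and 2108 and 21891 (SC), so 1 array, the SC replicate 2 with the discordant Xist signal, stood apart. The SC mean of Cdkn1a is therefore carried by that array.

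Genes of origins and forks had 29 of 35 measured genes tested, and both replication enzymes that had an unadjusted p under 0.05 differed between the SC group and another. Prim2, the large primase subunit that helps start each new strand, had 839 and 884 (PBS), 665 and 482 (N-inv) and 381 and 540.1 (SC). Its differences from PBS were -0.58 in N-inv (adjusted p = 0.99998 in limma) and -0.89 in SC (adjusted p = 0.507), the latter -1.12 without SC replicate 2. Fen1, the nuclease that trims Okazaki fragments and acts in base excision repair, had 1842 and 1924 (PBS), 1898 and 1903 (N-inv) and 2711 and 2942 (SC). Its difference between SC and PBS was 0.58 (adjusted p = 0.507 in limma), 0.52 without SC replicate 2. That probe set may hybridise with other transcripts, and a second Fen1 probe set with 528 and 471 (PBS), 486 and 731 (N-inv) and 461 and 666 (SC) differed by 0.15.

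Other pathway genes with an unadjusted p under 0.05 were few. Fbxo5, an inhibitor of the anaphase-promoting complex, had 216 and 213 (PBS), 265 and 312 (N-inv) and 248 and 247 (SC), a difference of 0.38 between N-inv and PBS (adjusted p = 0.99998 in limma). Gas1, a growth arrest gene, had 1197 and 1027 (PBS), 781 and 866 (N-inv) and 716 and 630.5 (SC), with differences from PBS of -0.42 in N-inv (adjusted p = 0.99998 in limma) and -0.70 in SC (adjusted p = 0.507), the latter -0.61 without SC replicate 2. Both tumour groups were below PBS at Gas1. Cenpq, a kinetochore gene, had 616 and 590.0, 577 and 575, and 422 and 459, a difference of -0.43 between SC and PBS (adjusted p = 0.591 in limma) and of 0.37 between N-inv and SC (adjusted p = 0.551). The condensin gene Ncaph differed by 0.56 between N-inv and SC (adjusted p = 0.546 in limma), and Lin54, a DNA-binding part of DREAM and MuvB, by -0.64 between SC and PBS (adjusted p = 0.603). Without SC replicate 2, Cenpq differed by -0.49 and 0.43, Ncaph by 0.71 and Lin54 by -0.96, and Lin54 was -0.31 without SC replicate 1. Among the 13 condensin and cohesin genes, 11 were higher in N-inv than in PBS with a median of 0.12, and 11 were higher than in SC with a median of 0.17, in which comparisons the medians of all named genes were 0.03 and 0.04. Against SC, 13 were higher without SC replicate 2 and 6 without SC replicate 1. The Rb, E2F and DREAM genes had medians of -0.08, -0.13 and -0.11 in the 3 comparisons. The last 2 of these were -0.02 and -0.21 without SC replicate 2. Foxm1, a driver of G2 genes, had 338 and 465 (PBS), 316 and 248 (N-inv) and 326 and 409.7 (SC).

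**Figure D4:**
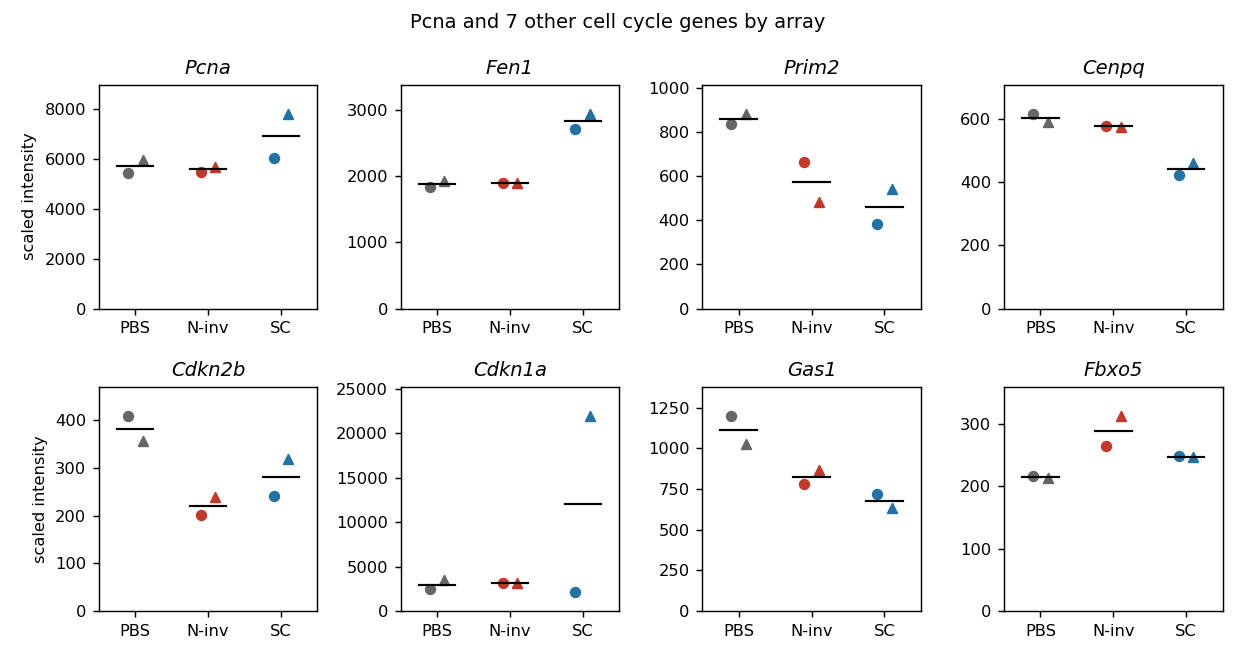
Scaled intensity (y, linear from 0) of Pcna and 7 other genes in each group (x), circles for replicate 1, triangles for replicate 2 and a bar at the mean. Fen1 is high in both SC arrays, Prim2 and Gas1 are below PBS in N-inv and SC, and the SC mean of Cdkn1a is set by 1 array at 21891.

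Levels of microglial markers were higher in N-inv, although single genes did not pass after adjustment either. Of 16 measured microglial markers, 15 were higher in N-inv than in PBS and 16 higher than in SC, with medians of 0.70 and 0.69. From probe sets not ending in _s_at or _x_at, 12 of 15 were higher than in PBS and 13 of 15 than in SC. The medians were then 0.72 and 0.65. When SC replicate 2 was left out, 14 of 16 were higher than in SC, with a median of 0.71. At an unadjusted p under 0.05, 9 of the 14 that were tested were higher in each of these comparisons, where 2.19% and 6.08% of all named genes tested were higher, and 0 passed after adjustment in limma, the smallest adjusted p over all probe sets being 0.283 and 0.286. Their summed level was 33605 and 34207 (PBS), 49410 and 55311 (N-inv) and 29387 and 37910 (SC), without overlap of N-inv with the others. Mpeg1, perforin-2 of macrophages and microglia, had 911 and 998 (PBS), 1869 and 1578 (N-inv) and 905 and 954 (SC). On the same arrays, 2 of the 5 S, G2 and M phase genes and 3 of the 9 mitotic genes were higher in N-inv than in PBS. Mki67 had 91.9 and 61.1 in N-inv, within the PBS range of 58.6 to 119.6 and within the receptor range. Both N-inv arrays lay above both PBS arrays for Ccnb2 and Bub1, and below them for Ccna2 and Tpx2. The part of microglial cells in the Cdk6 and E2f1 values was not tested.

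The 11 astrocyte markers had medians of 0.19 in N-inv against PBS, which was 0.075 under quantile normalization, and of 0.12 against SC. The latter was 0.064 with the deposited scaling, 0.32 without SC replicate 2 and -0.04 without SC replicate 1. Gfap, the intermediate filament of reactive astrocytes, had 6646 and 7905 (PBS), 20457 and 19153 (N-inv) and 4627 and 15331 (SC). The oligodendrocyte precursor markers, from the cells that divide in the adult cord, had a median of 0.03 in N-inv against PBS and of -0.22 in SC against PBS, where 0 of 10 were higher. The latter median was -0.25 without SC replicate 2, with 1 of 10 higher. Pdgfra, the growth factor receptor that marks those precursors, had 2594 and 2956 (PBS), 2851 and 3124 (N-inv) and 2339 and 3109.6 (SC). Summed, the precursor markers lay between 39885 and 42104 (PBS), 42663 and 44006 (N-inv) and 36938 and 37606 (SC), the group in which the 2 Ccnd2 probe sets were lowest. Oligodendrocyte markers also moved with SC, with a median of -0.49 against PBS, where 8 of 10 were lower and 5 of these had an unadjusted p under 0.05 beside 4.47% of all named genes tested, and of 0.44 in N-inv against SC. Without SC replicate 2 these medians were -0.34 and 0.34. Markers of fibroblasts and meninges had a median of -0.41 in SC against PBS with 5 of 8 lower, and the median was -0.18 without SC replicate 2. The part of precursor cells, oligodendrocytes and fibroblasts in those Ccnd2 values was not tested. Endothelial markers had medians of 0.09, 0.27 and -0.19 in the 3 comparisons, the last 2 being 0.35 and -0.17 without SC replicate 2. Of 11 measured lymphocyte markers, 9 lay within the receptor range on all 6 arrays. Neutrophil markers summed to between 1044 and 3244 (PBS), 1635 and 1656 (N-inv) and 3190 and 7162 (SC), and their part in differences that involve SC was not tested.

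**Figure D5:**
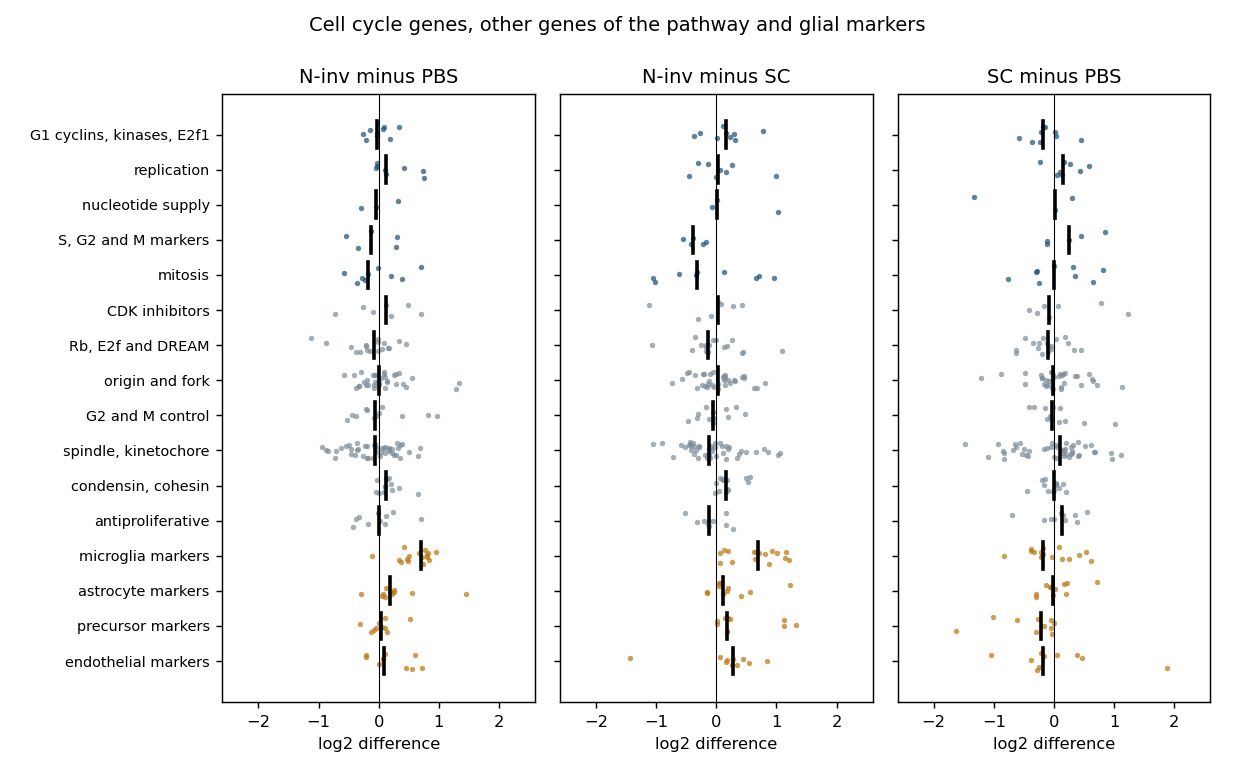
Log2 difference (x) of each gene of the cell cycle roles, of the other pathway lists and of 4 marker lists (y) in the 3 comparisons, 1 point per gene and a bar at the median of each list. The microglial markers are shifted to 0.70 and 0.69 in the comparisons of N-inv, while the medians of the cell cycle roles lie between -0.39 and 0.26.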

How the data were processed

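The authors deposited 1 intensity per probe set and array on a linear scale. Per the labels' protocols, 100 ng of total RNA went into a 2-cycle cRNA labelling. Each deposited array had a 2% trimmed mean of 1000, after a probe summary not given in the sources used here. Arrays were rescaled to the same median, 255.5, then transformed as log2(intensity + 25.6). Probe sets above the 40th percentile of the mean (an intensity of 147) were tested, which left 27022 probe sets and 12614 named genes. A gene is its probe set with the highest mean. Group means over 6 arrays were fitted with limma 3.58.1 in R 4.3.3, two-sided, with Benjamini-Hochberg adjustment over all tested probe sets, a threshold of 0.05, 3 residual and 3.72 prior degrees of freedom. Genes below the filter were read from a fit without it. Symbols come from the platform annotation, which gave 1 symbol for 34945 probe sets, several for 932 and none for 9160. The number of arrays limits the precision.

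The genes, lists and tests were chosen with earlier results of these data known. Every gene of the set is accounted for; values on all arrays are given for genes above the filter with an unadjusted p under 0.05 or without overlap, and for the brightest of each role. In a test on simulated data (27022 probe sets, design of N-inv against PBS), limma recovered 26 of 67 changes of size 1 on the log2 scale. It recovered 64 of 67 of size 2 and 66 of 66 of size 3, with 11 false calls. All sizes were added to the same simulated table with normal noise, so the large changes eased the adjustment for those of size 1. In the measured arrays, where 0 probe sets were called, recovery of size 1 may be lower. Alternatives covered scaling, pseudocount, filter, variance model, replicate block, probe set choice and each array left out.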

Additional observations from a re-analysis of the deposited data

How the results depend on the processing

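In each comparison 0 of the genes of the set passed an adjusted p of 0.05 in limma under all 16 alternatives, whose smallest adjusted p per alternative ran from 0.713 to 0.99999 for N-inv against PBS, from 0.185 to 0.986 for N-inv against SC and from 0.209 to 0.9995 for SC against PBS. Among all probe sets, 1 was called in N-inv against PBS when only the compared groups were fitted and 1 with an intensity trend, and 2 in N-inv against SC with that trend. Leaving out each array in turn gave 0 to 1, 0 to 1 and 0 to 9 called probe sets in the order of comparisons above, the 9 without SC replicate 1. An arm left with 1 array was assumed to vary like the other groups.

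The median of the 34 genes is near 0 and has no settled sign. With each array left out it ran from -0.043 to 0.086 in N-inv against PBS (0.048 when PBS replicate 2 was left out, 0.086 when N-inv replicate 2 was), from -0.058 to 0.033 in N-inv against SC, and from -0.034 to 0.069 in SC against PBS. Quantile normalization gave -0.063 and 0.088 in the last 2 comparisons, and the mean of all probe sets of a gene gave -0.11 and -0.054. With probe sets not ending in _s_at or _x_at, an alternative chosen after seeing the data, Mcm3 in N-inv against PBS turned to -0.62, Mcm2 in N-inv against SC to 0.056 and in SC against PBS to -0.37, and Fen1 in N-inv against SC to 0.10, since another probe set is read.

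Same-numbered arrays showed no strong shared deviation from their group means, with correlations of 0.01, 0.04 and -0.03. These values cannot show whether same-numbered arrays were handled together. With the replicate block, 0 genes of the set and 0 probe sets were called in each comparison, and the medians were -0.03, 0.00 and 0.03.

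With 2 arrays a group, the 95% intervals reached a median of 0.60 to either side, on the log2 scale, for the tested genes, and the 12 genes below the filter had signal near that of receptor probe sets.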
